A study of Mus musculus with 12 samples.

Results

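The cytoplasmic ribosomal protein genes encode the proteins of the ribosome that translates nuclear mRNA. They were taken as the rows whose mouse symbol is Rpl or Rps followed by a number, with or without a closing a or x, together with Rpl36al, Rplp0, Rplp1, Rplp2 and Rpsa. Pseudogene rows, whose symbols carry "-ps", were left out. The rule found 77 genes among the 55367 rows of the count table, 47 for the large subunit and 30 for the small subunit. Measured values played no part in the rule.

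RNA was sequenced from whole blood of CB17-SCID mice, a strain that lacks mature T and B cells, and every mouse, controls included, carried a HT1376 tumour, grafted from an established line of human bladder cancer. Dosing was oral and daily for 11 days, with vehicle or with CPI-0209 at 35 mg per kg. CPI-0209 (tulmimetostat) inhibits EZH2 and EZH1, the methyltransferases of Polycomb repressive complex 2. Of the 12 libraries, 3 are from vehicle mice and 9 from CPI-0209 mice, 3 each bled at 1 h, 6 h and 24 h past the final dose. When the vehicle mice were bled is not given. Nothing in them says whether replicates are separate animals or whether a replicate number marks a shared cage or day, so p values measure only the spread between these samples.

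The ribosome is built from ribosomal RNA and about equal amounts of each ribosomal protein, so these genes are expressed together in all cells. Reticulocytes, the young red cells of blood, have lost their nucleus and keep ribosomes and mRNA only for a short time before they mature. Loss of a single copy of certain ribosomal protein genes causes Diamond-Blackfan anaemia, an inherited failure of red cell production. Ribosomal protein mRNAs carry a terminal oligopyrimidine tract, a C followed by C and T bases at the transcription start, through which mTOR signalling controls their translation.

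The start sites of 6 genes are printed to show pyrimidine runs near the start in genes that carry the 6 h results. They are 4 genes called higher at 6 h, and 2 that were lower at 6 h when set against the sum of the ribosomal protein mRNAs. Each window runs from 20 bases before the RefSeq start to 10 bases after it, 5′ to 3′, with the longest run of C and T within the window in capitals.
Rpl7a, chr2:26910787-26910816, plus strand: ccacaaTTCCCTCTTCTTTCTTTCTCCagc
Rps10, chr17:27635235-27635264, minus strand: acgctgcgccgcgcacgCCCCTTCCTTTCC
Rpl4, chr9:64173367-64173396, plus strand: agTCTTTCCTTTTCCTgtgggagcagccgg
Rps15a, chr7:118116138-118116167, minus strand: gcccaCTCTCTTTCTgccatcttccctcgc
Rpl18, chr7:45718051-45718080, plus strand: acgagtgcgtctcgcaggccgCTCTTTCCC
Rps25, chr9:44407694-44407723, plus strand: TCCTTTTTTTCCgacatcttagcgaggctg

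Within the window the runs were 21, 13, 14, 10, 9 and 12 bases long in that order. The runs of Rps10 and Rpl18 reach its last base and that of Rps25 starts at its first, so they may be longer. Unlike the runs searched for below, these may begin with T. Those of Rpl7a and Rps10 span the annotated start, that of Rpl18 begins at base 2, and those of Rpl4, Rps15a and Rps25 end before the start. RefSeq (GRCm38.p6) gave start windows for 57 of the 77 genes, 67 windows in all. A C followed by at least 7 further C or T bases on the sense strand, between 40 bases before and 20 after the start, was found in 52.2% of these windows and in 19.0% of the 32851 windows of all genes. The letters CCGGAAG, the core bound by GABP and other ETS factors, were present on either strand of the 300-base window (250 before to 50 after) in 35.8% of member windows and 8.9% of all. AAGATGG, the core bound by YY1, was present in 16.4% and 6.3%, and TATAAA in 9.0% and 13.6%. A match of letters is a description and not a binding site.

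Every library held counts for every member, from 5 counts for Rpl36a in vehicle replicate 3 upward. Library totals ran from 6496573 to 9978215 counts, and the 77 genes together took 48249 to 104311 of them. Blood markers matched the label: reticulocyte, neutrophil, monocyte and platelet genes were present in all groups. Natural killer cell genes such as Gzma (617 to 1623 counts) were present too. The T cell genes Cd3e, Cd3d, Cd3g, Cd4, Cd8a and Trac had 0 counts in at least 1 library and at most 6, 37, 23, 10, 6 and 4 counts. Of B cell genes Ms4a1 had 0 counts in every library, Cd79a, Cd79b and Pax5 had at most 2, 4 and 32, and Ighm had 186 to 491. On the main library scaling used below (TMM), the third 24 h library stood apart from the other 2 of its group in the summed level of the members. Results that rest on it are given with and without it. As a share of all counts the 24 h libraries were more evenly spaced, at 0.743%, 0.870% and 0.962%.

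Levels in vehicle blood differed widely between members when expressed per kb of the principal transcript, in CPM, which are counts scaled to a common library size, here corrected by TMM factors. The highest was Rpl41, which encodes a very short basic peptide between the subunits, at 856 ± 70.1 CPM per kb (SD, n = 3). Rpl10, added late in large-subunit maturation, followed at 848 ± 13.004, and Rplp0, the base of the stalk that recruits translation factors, at 845 ± 55.0. These 3 levels did not differ beyond their spread. Among the next were Rps12 at 305 ± 10.2, Rpl38 at 241 ± 18.0, Rpl7 at 221 ± 16.7 and Rpl23a at 218 ± 15.1 CPM per kb. The last 3 of these did not differ beyond their spread.

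At the low end stood Rpl36a at 3.27 ± 1.81 CPM per kb, Rps20 at 6.67 ± 0.733, Rps15a at 6.94 ± 1.28, Rpl11 at 7.63 ± 0.801, Rpl27a at 8.998 ± 3.61 and Rpl37 at 9.19 ± 1.05. The highest and lowest levels were 262-fold apart, and the median of the 77 genes was 69.8 CPM per kb. Rps20 and Rps15a have principal transcripts of 3706 and 5130 bases in GENCODE M21, against 799 for Rpl10, so a level per kb depends on which transcript is taken as principal. Rplp0 alone took 14.7%, 14.1% and 15.6% of member counts in the 3 vehicle libraries.

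**Figure D1:**
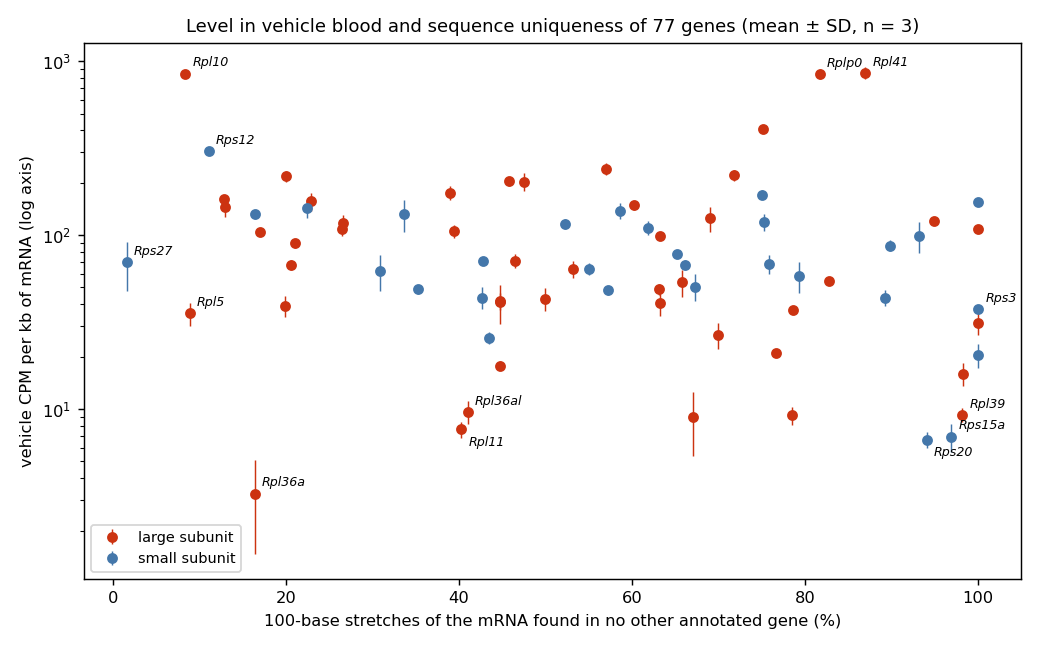
Level of each of the 77 genes in vehicle blood (CPM per kb of principal transcript, log axis, mean ± SD of 3 libraries) against the percentage of 100-base stretches of its principal transcript found in no other annotated gene. Levels ran from 3.27 (Rpl36a) to 856 (Rpl41), and the rank correlation of level with uniqueness was -0.22.

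Many ribosomal protein genes have near-identical processed pseudogenes, so reads can be split between copies. The share of 100-base stretches found in no other annotated gene ran from 1.6% for Rps27 to 100% for Rpl22, Rpl32, Rps21 and Rps3, among others. It was 8.4% for Rpl10, 8.9% for Rpl5, which also overlaps Fam69a on the other strand, and 11.1% for Rps12, whose levels are therefore uncertain. Across the 77 genes, which share libraries, uniqueness and level per kb had a Spearman rho of -0.22. The 319 rows with a pseudogene symbol held 2.50% to 3.75% as many counts as the members.

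The summed level of the 77 mRNAs was higher at 6 h than in vehicle under each of 5 library scalings, by a factor that depended on the scaling. In CPM on TMM-scaled sizes, the sums were 7331, 8120 and 7870 in vehicle, 7321, 7970 and 6262 at 1 h, 12058, 11545 and 13382 at 6 h, then 5606, 7194 and 11233 at 24 h. All 6 h libraries lay above all vehicle libraries, the 1 h libraries overlapped vehicle, and the 24 h libraries spread from below vehicle to near the 6 h level. The 6 h mean was 1.59-fold the vehicle mean with TMM or DESeq2 size factors, 1.54-fold with upper quartile factors, 1.28-fold with totals that leave out the 50 most abundant genes, and 1.15-fold with library totals. The sums weigh abundant genes most: the 5 highest members held 37.8% to 40.8% of member counts in vehicle and 43.1% to 43.8% at 6 h. With library totals the mean log2 CPM over the 77 genes overlapped, at 5.75 to 5.97 in vehicle and 5.84 to 5.97 at 6 h.

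As a share of all counts, the members took 0.821%, 0.887% and 0.810% in vehicle, 0.799%, 0.797% and 0.683% at 1 h, 0.924%, 0.938% and 1.05% at 6 h, then 0.743%, 0.870% and 0.962% at 24 h. Exact 95% binomial intervals, which cover counting error only, were within 0.814% to 0.827% for the first of these libraries. On this scale all 1 h libraries lay below all vehicle libraries (0.905-fold) and all 6 h libraries above. At 24 h the mean was 1.02-fold that of vehicle, with overlap. The scalings differ because TMM factors were 0.767 to 0.813 at 6 h against 1.03 to 1.12 in vehicle, and 1.32, 1.21 and 0.856 at 24 h.

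**Figure D2:**
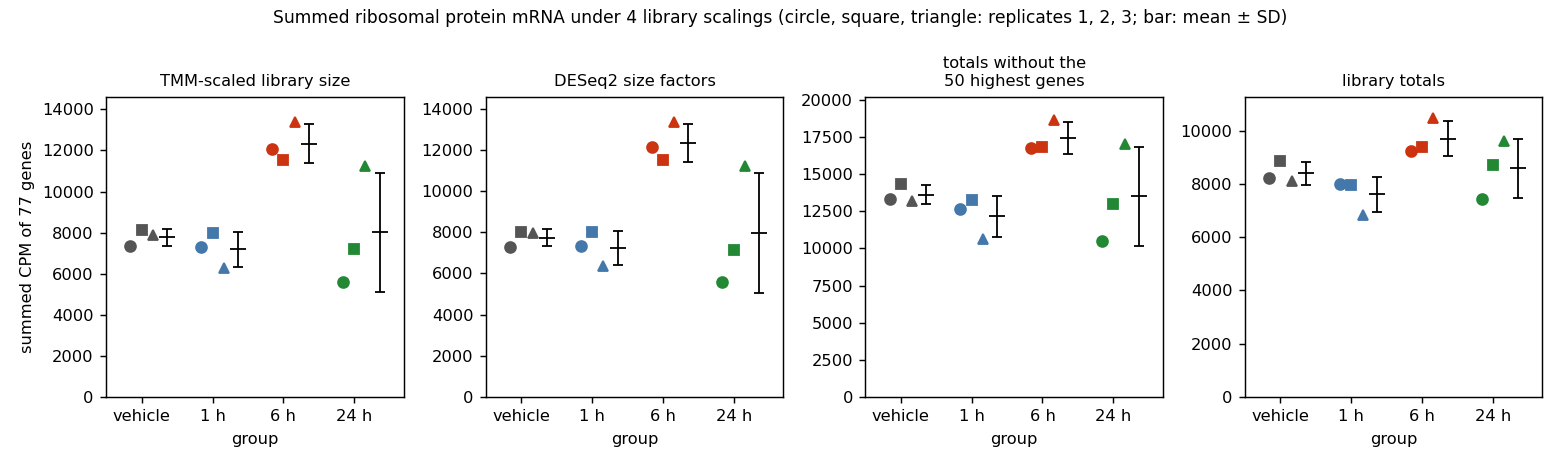
Summed CPM of the 77 genes in each library (circle, square and triangle for replicates 1, 2 and 3) under 4 scalings, with mean ± SD of 3 libraries per group. The 6 h libraries lie above every vehicle library in all 4 panels, by a mean of 1.59-fold on TMM sizes and 1.15-fold on library totals, and the third 24 h library lies near the 6 h libraries.

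At 6 h against vehicle, 12 of the 77 genes rose and 0 fell on TMM-scaled sizes (edgeR quasi-likelihood, Benjamini-Hochberg adjusted p under 0.05 over 13384 genes), which is 15.6% of members. Among all genes tested, 4.12% were called higher and 0.799% lower. An unadjusted p under 0.05 was found for 53.2% of members and 19.6% of all genes. The members' median log2 fold change was 0.52, with 73 of 77 above 0, where that of all genes was -0.04. In 56 members all 6 h libraries lay above all vehicle libraries, which held for 15.8% of all genes, and in 1 member, Rpl18, all lay below (13.5% of all genes).

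With library totals, all 6 h libraries lay above all vehicle libraries in 23 members (6.42% of all genes) and below in 12 (40.9%). On that scale 2 members were higher, Rpl7 among them, and 1 was lower (Rpl18), where 2.57% and 11.2% of all genes were called higher and lower. The members' median was then 0.06 and that of all genes -0.50. The distance between the medians was 0.57 on TMM sizes and 0.56 on totals, since a scaling moves all genes alike. DESeq2 called 28 members higher (6.57% of all genes) and limma-voom 15 (4.39%).

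The count of 12 depended on single libraries. It was 0 without any of the 3 vehicle libraries or without 6 h replicate 3, 2 and 4 without 6 h replicate 1 or 2, 5, 6 and 6 without 1 h replicate 1, 2 or 3, and 6 without 24 h replicate 2, in fits that called 1.53% to 3.24% of all genes higher. It was 28 without 24 h replicate 1 and 34 without 24 h replicate 3 (6.4% and 7.15% of all genes). The members' median ran from 0.46 to 0.56 in these 12 fits.

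**Figure D3:**
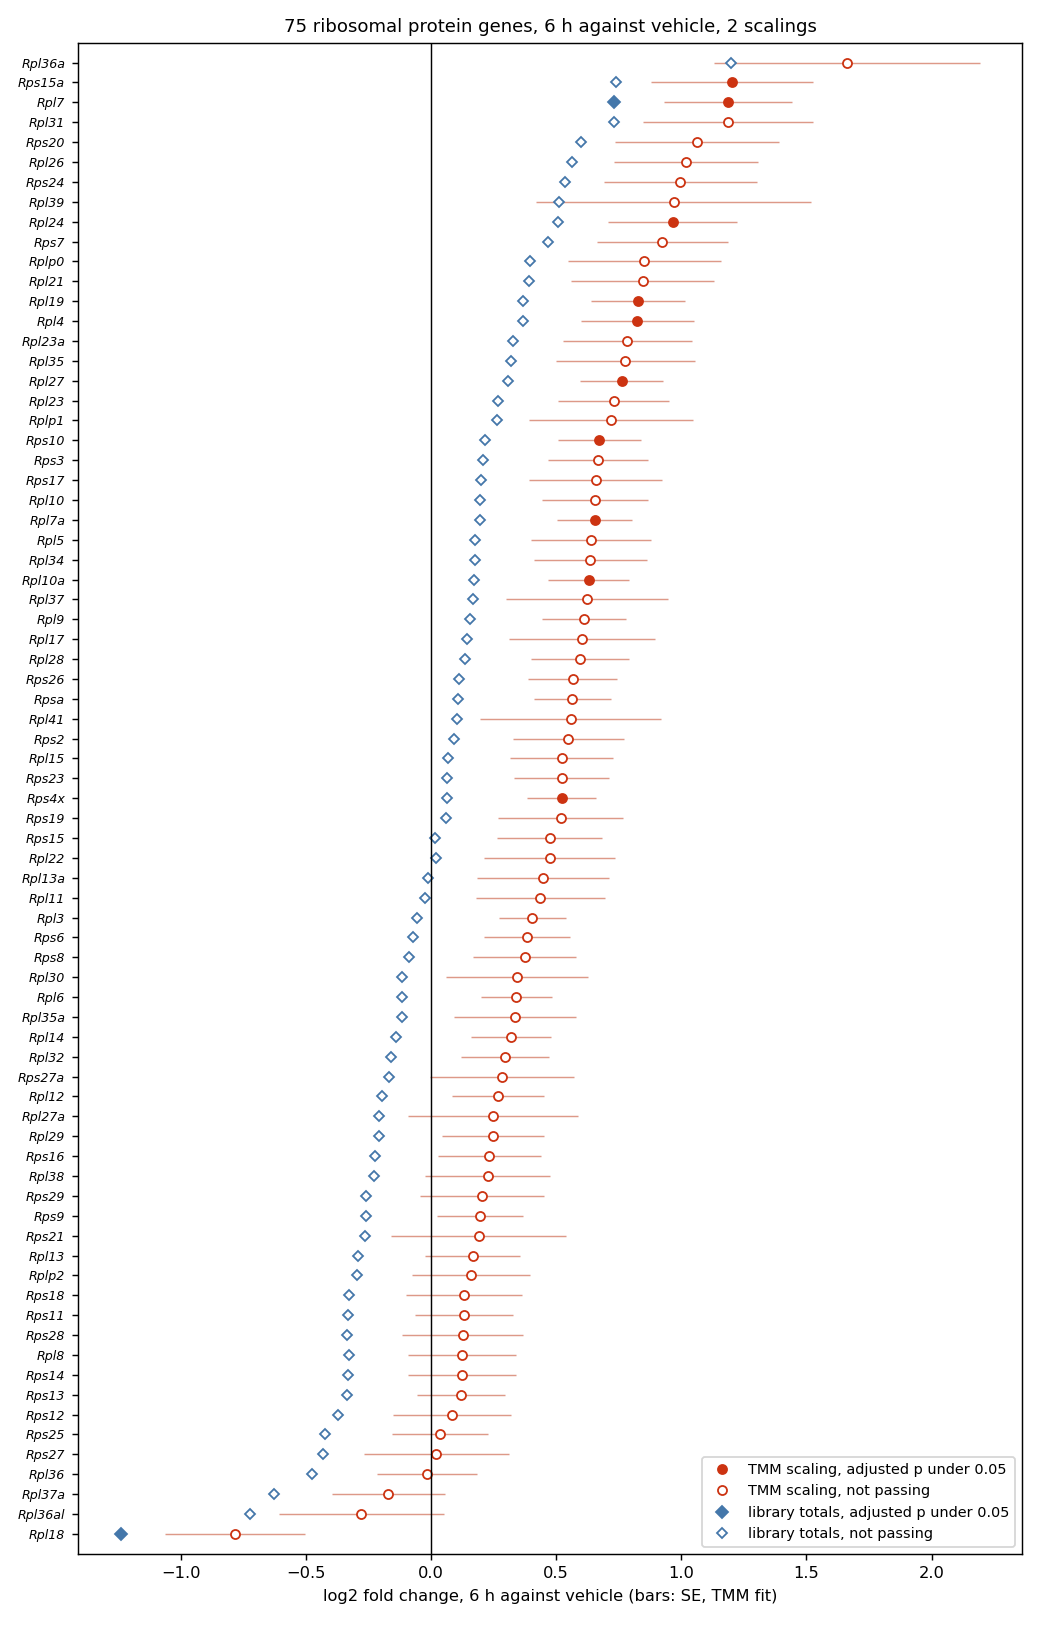
Log2 fold change of 75 of the 77 genes at 6 h against vehicle with TMM scaling (circles, bars are SE) and with library totals (diamonds), filled where the adjusted p was under 0.05. With TMM 71 of these genes lie above 0 and 10 are filled, with totals the points move left, and Rpl7 is filled on both scalings.

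Among the 8 large-subunit genes that rose at 6 h on TMM sizes, Rpl7 had the smallest p. Rpl7 (ENSMUSG00000043716, GRCm38 chromosome 1, 16101295 to 16104662, minus strand, 7 exons) stood at 237, 275 and 260 CPM in vehicle, 310, 313 and 267 at 1 h, 581, 538 and 640 at 6 h, then 199, 292 and 501 at 24 h. The 6 h libraries were the highest, the third 24 h library came next, and the other 8 lay between 199 and 313. Its log2 fold change at 6 h was 1.19 (SE 0.26, adjusted p = 0.0159). With library totals it was 0.73 (SE 0.18, adjusted p = 0.0236). It was called in 13 of 13 other settings and in 7 of 12 fits that left out 1 library.

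Rpl27, mutated in Diamond-Blackfan anaemia, read 59.3, 70.5 and 64.5 CPM in vehicle and 104, 113 and 113 at 6 h. The 1 h libraries, at 65.2, 75.5 and 67.8, overlapped vehicle. Its log2 fold change at 6 h was 0.76 (SE 0.17, adjusted p = 0.0168), and 0.31 (adjusted p = 0.173) with library totals.

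Rpl19, which reaches from the large subunit toward the small one, read 125, 145 and 125 CPM in vehicle and 230, 216 and 254 at 6 h (log2 fold change 0.82, SE 0.19, adjusted p = 0.0213). The 6 h and vehicle libraries did not overlap. Rpl4, whose long loop lines the tunnel for the nascent peptide, had 0.82 (SE 0.22, adjusted p = 0.0487) and Rpl24, in a bridge between the subunits, 0.96 (SE 0.26, adjusted p = 0.0444).

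Rpl7a had a log2 fold change of 0.65 at 6 h (SE 0.15, adjusted p = 0.0220). Rpl10a, the protein of the L1 stalk that guides spent tRNA out of the ribosome, had 0.63 (SE 0.16, adjusted p = 0.0376). Only 26.5%, 12.9% and 19.9% of the 100-base stretches of Rpl7a, Rpl10a and Rpl24 are unique, and Rpl24 shares exons with the gene model Gm28037 on its strand, as Rpl19 does with Gm27597, so their counts could include reads of copies. With library totals none of Rpl19, Rpl4, Rpl24, Rpl7a and Rpl10a passed, at log2 fold changes of 0.17 to 0.51.

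Of the 30 small-subunit genes 4 rose at 6 h on TMM sizes. Rps15a, another Diamond-Blackfan gene, read 30.7, 43.1 and 33.0 CPM in vehicle and 89.6, 57.8 and 98.7 at 6 h (log2 fold change 1.20, SE 0.32, adjusted p = 0.0468). Its second 6 h library lay between the other 6 h libraries and vehicle. Rps10 read 95.5, 109 and 104 CPM in vehicle and 152, 152 and 189 at 6 h (0.67, SE 0.17, adjusted p = 0.0324), and it overlaps exons of a readthrough gene on its strand. Rps4x, the X-linked copy of Rps4, read 80.3, 74.98 and 73.8 CPM and 106, 106 and 117 (0.52, SE 0.14, adjusted p = 0.0451). With library totals the adjusted p of these 3 genes was 0.0674, 0.334 and 0.795.

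The threshold fell within a run of like values. Just outside it were Rpl9 (0.61, adjusted p = 0.0506), Rpsa (0.56, 0.0515), Rpl26 (1.02, 0.0565), Rps7 (0.92, 0.0574) and Rpl31 (1.19, 0.0588), and just inside Rpl4. The largest log2 fold change, 1.66 for Rpl36a (SE 0.53, adjusted p = 0.0910), rested on 15, 22 and 5 counts in vehicle and 33, 47 and 35 at 6 h. At the other end, 4 members lay below 0: Rpl18 at -0.79, Rpl36al at -0.28, Rpl37a at -0.17 and Rpl36 at -0.02, none of which passed.

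**Figure D4:**
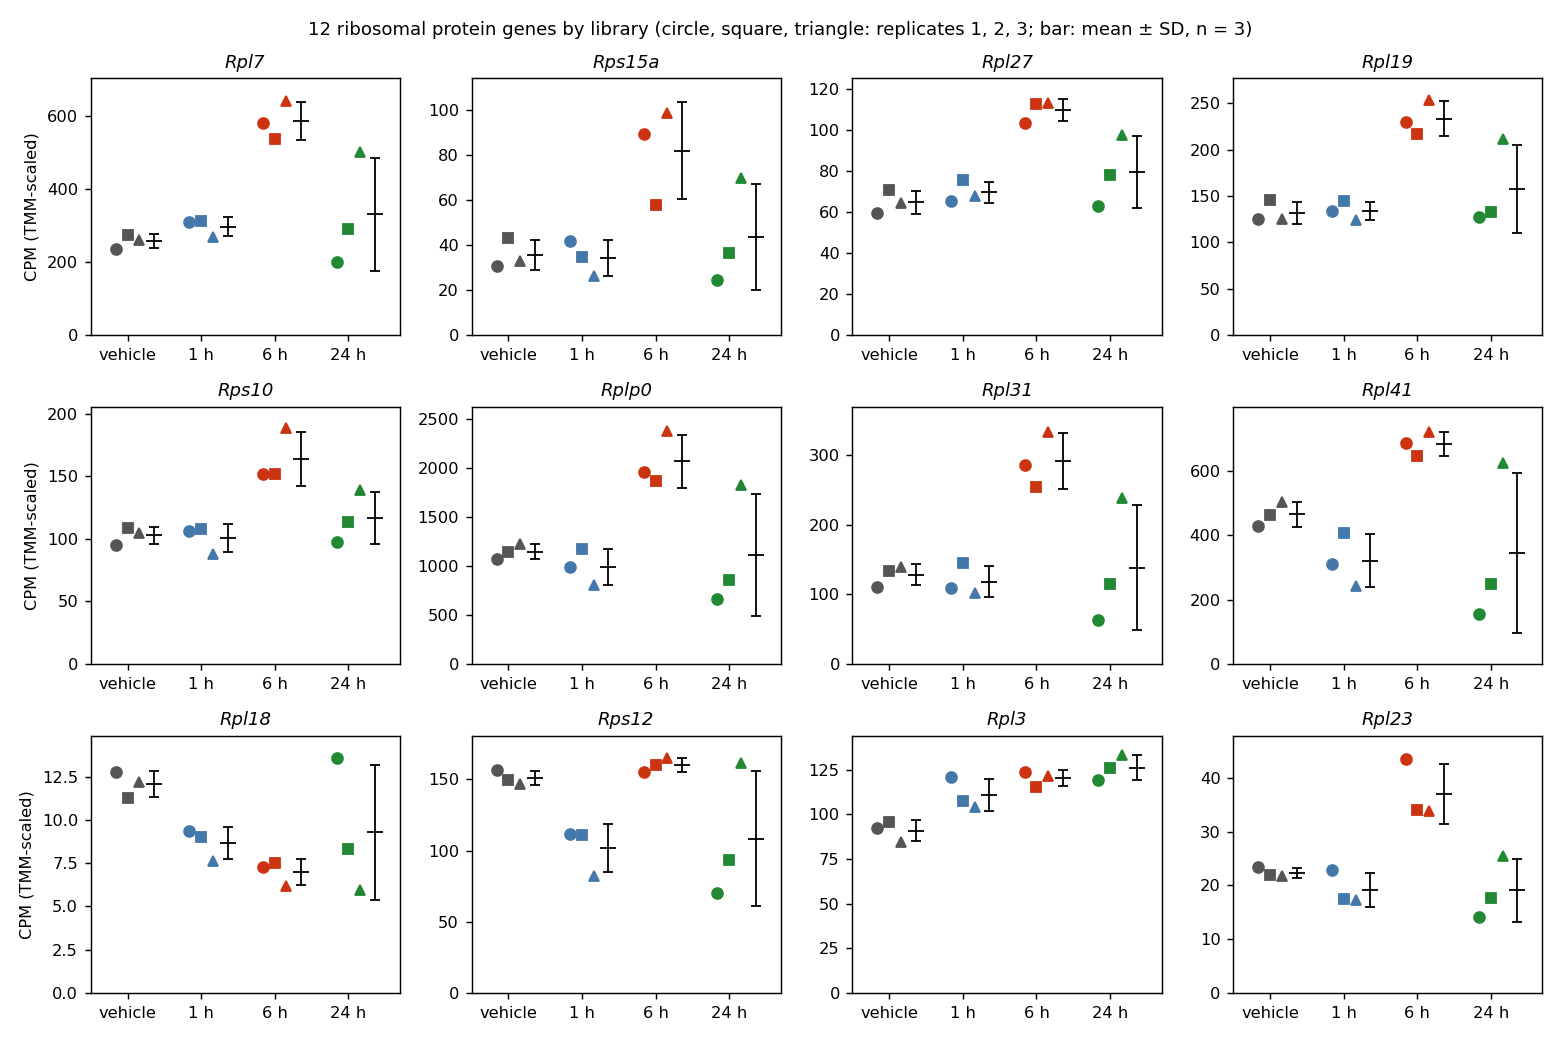
CPM on TMM-scaled sizes of 12 of the genes in each library (circle, square and triangle for replicates 1, 2 and 3), with mean ± SD of 3 libraries per group. In Rpl7, Rps15a, Rpl27, Rpl19 and Rps10 the 6 h libraries lie above all vehicle libraries, Rpl18 runs the other way, and Rpl3 lies above vehicle at all 3 times.

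Grouped by role, the large subunit had a median log2 fold change of 0.60 at 6 h and the small subunit 0.43. In counts, the large subunit took 75.02%, 73.8% and 75.1% of member counts in vehicle and 77.1%, 77.5% and 76.7% at 6 h, without overlap. These shares weigh abundant genes most. Rplp0 alone, a large-subunit gene, took 14.1% to 15.6% of member counts in vehicle and 16.2% to 17.8% at 6 h. Of 7 proteins around the exit of the peptide tunnel, Rpl19 rose, and the median of the 7 was 0.82, with Rpl31, Rpl26 and Rpl23a (0.78, adjusted p = 0.0974) above 0 without passing. Of 17 Diamond-Blackfan genes, Rpl27, Rps10 and Rps15a rose, with a median of 0.57. The founding gene of that disease, Rps19, had 0.52 and did not pass. Beside these lists, 12 of all 77 members and 4.12% of all genes rose in the same fit on TMM sizes.

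None of the 4 stalk genes passed at 6 h, with a median of 0.49. Rplp0 read 1077, 1141 and 1226 CPM in vehicle, 995, 1170 and 808 at 1 h, 1967, 1867 and 2380 at 6 h, then 668, 858 and 1830 at 24 h. The 6 h libraries were all above vehicle, and the log2 fold change of 0.85 had an SE of 0.31 (adjusted p = 0.132). Rplp1, Rpl12 and Rplp2 had 0.72, 0.27 and 0.16. Rpl5 and Rpl11, which bind 5S ribosomal RNA and hold Mdm2 when free of the ribosome, had 0.64 (adjusted p = 0.151) and 0.44 (adjusted p = 0.375). Counts of 0 called in these 2 lists are from edgeR, where Rplp0, Rplp1 and Rpl5 had an unadjusted p under 0.05. DESeq2 called Rplp0 alone of these 6 genes, limma-voom called none, and edgeR called Rplp0 without 24 h replicate 1 or 3 and Rpl5 without 24 h replicate 3.

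Each member was also compared with the members' own sum as the library size, so the rest of the blood RNA does not enter the scaling. It still enters the estimate of the spread and the adjustment of p, which use all 13384 genes. At 6 h, 1 gene was higher against the members' sum and 4 were lower (edgeR). That sum includes the gene itself and weighs abundant members most: the 5 highest members held 43.1% to 43.8% of it at 6 h. Among all 13384 genes, 1.79% were higher and 19% lower on this scale. Rpl7 went from 3.23%, 3.39% and 3.31% of member counts in vehicle to 4.82%, 4.66% and 4.78% at 6 h (log2 fold change 0.52, SE 0.16, adjusted p = 0.0402). At 1 h it took 4.23%, 3.93% and 4.27%, also above vehicle, without a call (adjusted p over 0.05).

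Rpl18, a large-subunit gene mutated in Diamond-Blackfan anaemia, went the other way. It read 12.8, 11.3 and 12.2 CPM in vehicle, 9.38, 8.99 and 7.63 at 1 h, 7.30, 7.54 and 6.16 at 6 h, then 13.6, 8.32 and 5.93 at 24 h. The 1 h and 6 h libraries lay below all vehicle libraries, and the 24 h libraries ranged from above vehicle to the lowest of all. Its log2 fold change against the members' sum was -1.44 (SE 0.42, adjusted p = 0.0349), on library totals -1.24 (SE 0.36, adjusted p = 0.0367), and on TMM sizes -0.79 (SE 0.28, adjusted p = 0.129).

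Rps12 took 2.13%, 1.84% and 1.86% of member counts in vehicle and 1.28%, 1.38% and 1.23% at 6 h (-0.58, SE 0.18, adjusted p = 0.0393). Rps25, needed for initiation on some viral internal entry sites, took 0.984%, 1.09% and 0.994% in vehicle and 0.693%, 0.647% and 0.648% at 6 h (-0.63, SE 0.20, adjusted p = 0.0436). Rpl37a had -0.83 (SE 0.27, adjusted p = 0.0438). In CPM on TMM sizes these 3 genes were near their vehicle level at 6 h, with log2 fold changes of 0.08, 0.03 and -0.17. Their fall is thus one relative to the members' sum.

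Other extremes of this scale were Rpl36a (1.02), Rps15a (0.53), Rpl31 (0.52) and Rps20 (0.39) at the high end and Rpl36al (-0.92), Rpl36 (-0.69) and Rps27 (-0.64) at the low end, none of them called. No member was called on this scale when a vehicle library, a 6 h library, 1 h replicate 1 or 24 h replicate 2 was left out. The counts were 0 higher and 1 and 2 lower without 1 h replicate 2 or 3 (12% and 12.6% of all genes lower). They were 3 higher and 8 lower without 24 h replicate 1 (2.39% and 33.1% of all genes), and 3 higher and 15 lower without 24 h replicate 3 (2.63% and 38%). The directions of Rpl7, Rpl18, Rps12, Rps25 and Rpl37a were kept in all 12 of these fits.

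On the same scale no member was called at 1 h against vehicle, where 0.792% of all genes were higher and 0% lower, or at 24 h against vehicle (0.0672% and 0%). Unadjusted p under 0.05 were found for 2 and 8 members (5.75% and 5.99% of all genes), and limma-voom called none. Between 6 h and 1 h, Rpl3 alone was called, lower (-0.67, adjusted p = 0.0376), where 0.0598% of all genes were higher and 28.9% lower. That count of 1 was 4 without 24 h replicate 1 and 9 without 24 h replicate 3 (39.7% and 44.2% of all genes), each with 1 higher (0.222% and 0.277%), and 0 without any other single library except 1 h replicate 2. Between 24 h and 6 h, Rpl3 (0.79), Rpl6 (0.60), Rpsa (0.59), the laminin receptor protein of the small subunit, and Rpl18 (1.24) rose against the members' sum. In that fit 29.2% of all genes were higher and 1.34% lower. Without 24 h replicate 3 the counts were 19 higher and 7 lower (52.7% and 3.01% of all genes), without any 6 h library or 24 h replicate 1 or 2 they were 0, and without a vehicle or 1 h library 1 to 3 were higher. Between 24 h and 1 h no member was called (0% higher and 0.00747% lower of all genes), and 2 members and 5.11% of all genes had an unadjusted p under 0.05.

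Other properties of the members were set beside the size of the 6 h change. Across the 77 genes, which share the same libraries, uniqueness and the 6 h log2 fold change had a Spearman rho of 0.06. Members with at least 50% unique stretches (43 genes) had a median of 0.52 and the 34 others 0.48. Principal transcript length and the 6 h log2 fold change had a rho of 0.36, with 0.42 at 1 h and 0.49 at 24 h against the same vehicle libraries, and level per kb in vehicle and the 6 h change a rho of 0.12.

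On TMM sizes, reticulocyte markers and the ribosomal protein mRNAs were both higher at 6 h. Of 34 reticulocyte and erythroid genes measured, 16 rose at 6 h (edgeR, TMM sizes), with a median of 1.06. In that fit 4.12% of all genes were called higher. The membrane skeleton gene Epb42 had 3.15 (SE 0.39) and Gata1, the erythroid transcription factor, 1.72 (SE 0.20). The summed CPM of the 34 genes was 93777 to 104774 in vehicle, 104353 to 120627 at 1 h, 166179 to 190330 at 6 h and 50834 to 148876 at 24 h, and all 34 passed the filter on low counts. The 4 adult globin genes summed to 977 to 2086, 1633 to 2850, 4320 to 5599 and 1815 to 2836 CPM.

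By library, the reticulocyte genes had a mean log2 CPM of 8.16, 8.18 and 8.39 in vehicle, then 8.70, 8.82 and 8.60 at 1 h, 9.58, 9.47 and 9.44 at 6 h, then 7.60, 8.09 and 9.13 at 24 h. For the 77 ribosomal protein genes the means were 5.63, 5.84 and 5.71 in vehicle, then 5.64, 5.71 and 5.38 at 1 h, 6.22, 6.16 and 6.32 at 6 h, then 5.19, 5.61 and 6.10 at 24 h. On these TMM sizes the 6 h libraries were the highest in both lists. At 24 h the third library was the highest and the first the lowest. Both lists were divided by the same sizes, with TMM factors of 1.32, 1.21 and 0.856 at 24 h, so their parallel is in part shared scaling. Means of the reticulocyte genes were not taken with library totals. At 1 h the lists parted, since all reticulocyte means were above vehicle and the ribosomal protein means were not. With library totals the ribosomal protein means at 6 h, 5.84, 5.86 and 5.97, overlapped those in vehicle, 5.79, 5.97 and 5.75. At 24 h they were 5.59, 5.88 and 5.88 on that scale, so the order there depended on the scaling.

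The part that reticulocyte RNA had in the ribosomal protein values was not tested. In bulk blood, more cells of a type and more RNA per cell cannot be told apart. Leaving the reticulocyte and globin genes out of the TMM factors gave 12 members higher at 6 h (4.13% of all genes). That setting changes only the factors and not the counts, so it could not test the reticulocyte part. Platelet genes were also higher at 6 h in sum, at 6003 to 7942 CPM against 4196 to 5418 in vehicle. Of the 20, 2 were called, where 4.12% of all genes were called higher and 0.799% lower. Neutrophil genes overlapped between those groups. Monocyte genes lay lower at 6 h in sum, at 4814 to 5517 CPM against 5841 to 8207 in vehicle, with 0 of 15 called in edgeR. Their mean log2 CPM overlapped, at 6.28 to 6.79 at 6 h and 6.58 to 7.12 in vehicle.

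**Figure D5:**
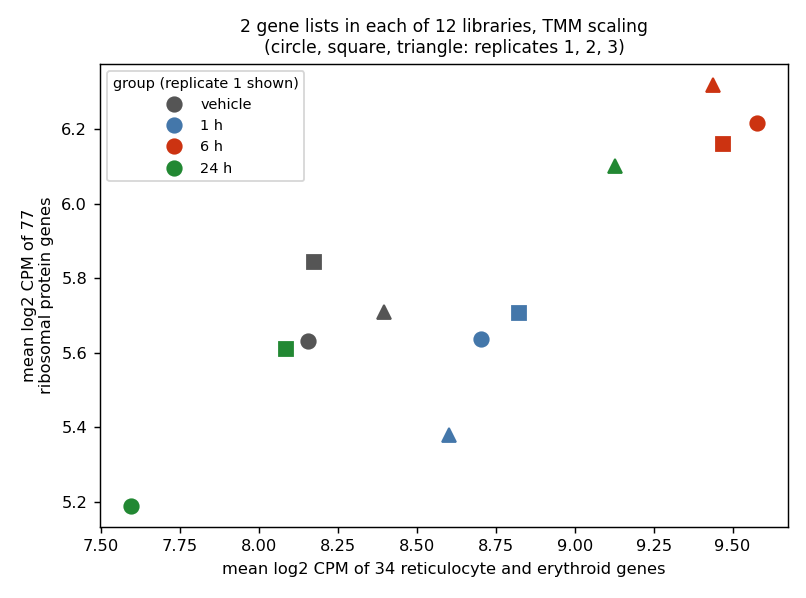
Mean log2 CPM (TMM scaling) of the 77 ribosomal protein genes against that of 34 reticulocyte and erythroid genes in each of the 12 libraries, with colour for group and shape for replicate. The 6 h libraries lie at the upper right, the third 24 h library lies near them, and the 1 h libraries lie to the right of vehicle without being higher.

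At 1 h against vehicle no member was called in edgeR, DESeq2 or limma-voom, where 0.179% of all genes were called higher and 0.0149% lower in edgeR. An unadjusted p under 0.05 was found for 4 members and 6.90% of all genes, and the members' median log2 fold change was -0.14 (all genes -0.02). In 14 members all 1 h libraries lay below all vehicle libraries and in 1 above, against 8.44% and 8.92% of all genes. With library totals these counts were 21 and 1 (10.1% and 7.64% of all genes), and no member was called in edgeR, where 0.516% of all genes were called higher and 0% lower. An unadjusted p under 0.05 was then found for 6 members and 6.25% of all genes. The smallest p were those of Rpl35a (-0.68, SE 0.25, adjusted p = 0.488), Rps12 (-0.57, SE 0.24, adjusted p = 0.611) and Rpl36 (-0.47, SE 0.20, adjusted p = 0.658). Rps12 read 156, 149 and 147 CPM in vehicle and 112, 111 and 82.1 at 1 h.

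Rpl3, which lies close to the peptidyl transferase centre, was the member above vehicle at 1 h. It read 92.3, 95.7 and 84.3 CPM in vehicle, 121, 107 and 104 at 1 h, 124, 115 and 122 at 6 h, then 119, 126 and 133 at 24 h. All treated libraries were above all vehicle libraries on TMM sizes, and the 24 h libraries, which lay far apart for most members, lay close together. The log2 fold changes of 0.29, 0.40 and 0.47 had adjusted p of 0.716, 0.0999 and 0.320 in edgeR, and with library totals the 6 h change was -0.06, so the direction at 6 h turned with the scaling.

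At 24 h against vehicle no member was called in edgeR (0.12% of all genes higher, 0% lower) or limma-voom, and 5 members and 8.28% of all genes had an unadjusted p under 0.05. DESeq2 called 1 member, Rpl3, higher (0.56% of all genes). The members' median was 0.00. All 24 h libraries lay above all vehicle libraries in 4 members and below in 2 (6.34% and 5.61% of all genes), and with library totals in 9 and 11 (5.42% and 4.45%). With totals edgeR called no member, where 0.194% of all genes were called higher and 0% lower, and 8 members and 7.74% of all genes had an unadjusted p under 0.05. The spread within the group was wide: the median coefficient of variation over members was 32.6% at 24 h, against 8.98% in vehicle, 13.9% at 1 h and 10.2% at 6 h.

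Rpl41 showed the spread at 24 h. It read 429, 464 and 505 CPM in vehicle, 312, 409 and 244 at 1 h, 687, 647 and 721 at 6 h, then 156, 250 and 626 at 24 h. All 1 h libraries and the first 2 of 24 h were below vehicle, and the third 24 h library was above it. Without 24 h replicate 3, Rpl41 (-1.20, SE 0.22, adjusted p = 0.0201) and Rps12 (-0.88, SE 0.17, adjusted p = 0.0239) were called lower at 24 h, the only 2 of 77, where 0.561% of all genes were called lower, and the members' median was -0.30.

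Between 6 h and 1 h, no member passed in edgeR or limma-voom, although 58 of 77 had an unadjusted p under 0.05 (20.6% of all genes). In 69 members all 6 h libraries lay above all 1 h libraries, against 18.1% of all genes. The median log2 fold change was 0.66. Rpl7a (0.65, adjusted p = 0.0663), Rpl19 (0.80, adjusted p = 0.0687) and Rpl23 (0.95, adjusted p = 0.0687) were near the threshold. In edgeR 0.149% of all genes were called higher and 0.381% lower. DESeq2 called 35 members higher (3.67% of all genes). Without 24 h replicate 1 or 3, which are not in this contrast but share its estimate of the spread, edgeR called 40 and 43 (4.36% and 6.57% of all genes). With library totals 1 member was called higher, where 0.172% of all genes were higher and 5.49% lower.

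Between 24 h and 6 h, Rpl23 alone fell and 0 rose in edgeR, where 1.29% of all genes were called lower and 0.553% higher. Rpl23, which can bind Mdm2 when free of the ribosome, read 43.5, 33.97 and 33.7 CPM at 6 h, then 14.1, 17.7 and 25.4 at 24 h, without overlap, against 23.4, 21.9 and 21.7 in vehicle. Its log2 fold change was -0.96 (SE 0.22, adjusted p = 0.0447). The members' median was -0.54, and in 37 members all 24 h libraries lay below all 6 h libraries (12% of all genes). DESeq2 called 20 members lower (6.02% of all genes) and limma-voom 9 (4.5%).

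Without 24 h replicate 3 there were 49 members called lower between 24 h and 6 h (10.2% of all genes), led by Rpl41 (-1.76, adjusted p = 9.1e-05) and Rplp0 (-1.44, adjusted p = 9.9e-05). Without any other single library there were 0. With library totals the 2 called members were Rpl26, lower (-0.76, adjusted p = 0.0398), and Rpl3, higher (0.58, adjusted p = 0.0303), where 20.3% of all genes were higher and 1.95% lower. Between 24 h and 1 h no member passed in edgeR, DESeq2 or limma-voom (0% of all genes higher and 0.0224% lower in edgeR). An unadjusted p under 0.05 was found for 1 member, Rpsa (0.51), and 5.99% of all genes.

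Other parts of the translation machinery were read beside the members. For ribosomal genes whose symbols the rule does not match, the log2 fold changes at 6 h were 0.77 for Rps3a1, 0.72 for Rack1 (SE 0.20, adjusted p = 0.0507) and 0.12 for Fau, and none of these passed. Paralogs with other symbols were scarce: 4 of 8 passed the filter on low counts, with 6 h log2 fold changes of -0.20 to -0.08, and Rpl10l had 0 counts in all libraries.

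The 74 measured mitochondrial ribosomal protein genes, whose products translate mitochondrial mRNA, had a median of -0.15 at 6 h. On TMM sizes (edgeR) Mrpl15 (0.91) rose and Mrps25 (-0.95) fell, where 4.12% of all genes were called higher and 0.799% lower. Their summed CPM was 444 to 469 in vehicle and 430 to 448 at 6 h.

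Of 20 other genes known for terminal oligopyrimidine mRNAs, 4 rose at 6 h, with a median of 0.58: the elongation factors Eef2 (0.88, SE 0.17, adjusted p = 0.00889), Eef1d (1.00) and Eef1a1 (0.70), and Btf3 (0.90), which meets the nascent chain. With library totals 0 of the 20 were higher and 3 lower. Among all genes 4.12% were called higher on TMM sizes, and 2.57% higher and 11.2% lower with library totals. Eef2 went from 604 ± 5.64 CPM in vehicle to 1114 ± 60.9 at 6 h (SD, n = 3).

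Of 34 initiation factors, 5 rose at 6 h, with a median of 0.21, led by Eif5, the GTPase activator of start codon recognition. It went from 1061 ± 143 CPM in vehicle to 6638 ± 357 at 6 h (2.65, SE 0.39, adjusted p = 0.00154). Eif1 (1.42), Eif3i (1.36), Eif3c (0.92) and Eif3k (0.78) also rose. With library totals 3 of the 34 were higher and 2 lower. The shares of all genes were again 4.12% higher on TMM sizes, and 2.57% higher and 11.2% lower with library totals.

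Of 13 measured regulators of oligopyrimidine mRNA translation, the mTOR kinase and the oligopyrimidine-binding Larp1 (0.39) among them, none passed at 6 h in edgeR, and Eif4ebp2 (-0.42) had an unadjusted p under 0.05. Of 12 measured factors known at ribosomal protein promoters none passed, and Gabpb2 (-0.37) had an unadjusted p under 0.05. Gabpa had -0.40 and Sp1 -0.23. With library totals Eif4ebp2, Gabpa and Gabpb2 were called lower, on a scale where 11.2% of all genes were.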

How the data were processed

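The authors deposited a table of whole-number counts per gene for the 12 libraries. Per the labels' protocols, blood RNA was isolated with a PAXgene kit, depleted of ribosomal RNA and sequenced in 150-base pairs, and the submitters' processing notes name RSEM, so the counts may be rounded estimates. Those notes name hg38, while the gene IDs are mouse. The aligner, the annotation release and the strand setting were not given in the sources used, so reads of antisense or copied genes may be counted together.

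Genes were filtered with filterByExpr (13384 remained, all 77 members among them), scaled by TMM and tested over all 4 groups with edgeR 4.0.16 (quasi-likelihood, robust, R 4.3.3) at a Benjamini-Hochberg adjusted p under 0.05. Alternatives were other scalings and filters, DESeq2 1.42.0, limma-voom (limma 3.58.1), a replicate block and leaving out each library. Uniqueness, transcript lengths and positions came from GENCODE M21 on GRCm38 (55111 of 55367 IDs matched), start windows from RefSeq. Members and gene lists were chosen with earlier results of these data known. Named are the members past the threshold against vehicle, the 6 highest and 6 lowest changes relative to the members' sum, the 8 highest and 6 lowest levels per kb, and up to 3 genes of smallest p per list. Lists with 5 or fewer calls at 6 h on TMM sizes are named in full, except the platelet list. Other genes, such as Rpl3, Rpl41 and Rps19, were chosen after their values were seen. Some genes that this rule would name are not reported here.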

Additional observations from a re-analysis of the deposited data

Results flagged for a closer look

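Rpl23 was singled out because its changes at 24 h and at 6 h against the same vehicle libraries differed in a direct test between the times. The log2 difference of 24 h from 6 h was -0.96 (SE 0.22, edgeR adjusted p = 0.0447), and all 3 libraries at 24 h were lower than all 3 at 6 h. It was called in 11 of 13 other settings and in 1 of 12 fits that left out 1 library, with log2 fold changes of -1.22 to -0.76 in those 12. With library totals it was -0.50 (adjusted p = 0.0956).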

How the results depend on the processing

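Of the counts of members called at 6 h against vehicle, the 12 higher became 2 with library totals or with totals without the 50 highest genes (1 lower in each), 22 with no filter, 28 with DESeq2 and 39 with only the groups compared (2.57%, 2.96%, 3.74%, 6.57% and 8.81% of all genes higher in the same order). At 24 h against vehicle DESeq2 called 1 higher. At 6 h against 1 h, the 0 higher became 1 with library totals or with totals without the 50 highest genes, 36 with no filter, 35 with DESeq2 and 48 with only the groups compared (0.172%, 0.179%, 3.13%, 3.67% and 8.87% of all genes). At 24 h against 6 h, the 1 lower became 2 with totals without the 50 highest genes or with 5 CPM in 3 libraries, 25 with no filter, 20 with DESeq2, 9 with limma-voom and 0 with only the groups compared (1.97%, 2.8%, 3.72%, 6.02%, 4.5% and 0% of all genes), and 1 was higher with library totals (20.3%). Relative to the members' own sum at 6 h, 2 were higher with 5 CPM in 3 libraries (2.69% of all genes), and with TMM in place of the member sum 12 were higher and 0 lower (4.12% and 0.799%). Signs changed with the scale: at 6 h against vehicle Rps12 and Rps25, called lower against the members' sum at -0.58 and -0.63 (log2), were at 0.08 and 0.03 with TMM.

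As a share of all counts, which no scaling changes, the members had means of 0.839% in vehicle and 0.969% at 6 h. Their summed level was also taken as a percentage of the scaled library size. In vehicle its mean was 0.777%, 0.774%, 0.781% and 1.36% with TMM, DESeq2 size factors, upper quartile and totals without the 50 highest genes. At 6 h it was 1.23%, 1.23%, 1.20% and 1.74%. With the last of these scalings it was 1.22% at 1 h and 1.35% at 24 h.

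Leaving out 1 library at a time gave 0 to 34 members higher and 0 to 1 lower at 6 h against vehicle, 0 to 2 lower at 24 h against vehicle, 0 to 43 higher at 6 h against 1 h, and 0 to 49 lower at 24 h against 6 h. Relative to the members' sum at 6 h it gave 0 to 3 higher and 0 to 15 lower. The cause of these changes was not tested.

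Deviations of same-numbered libraries correlated at -0.111 to 0.168, so the numbers were not taken to pair samples. With a replicate block, 8 members were higher at 6 h against vehicle (4.12% of all genes), 3 lower at 24 h against 6 h (2.83%), and 0 higher and 2 lower at 6 h relative to the members' sum (1.69% and 15%).

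Depth limits Rpl36a, with 5 to 47 counts per library, so its fold changes rest on few reads.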
